A study of Drosophila melanogaster with 9 samples.

Results

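The telomeric retrotransposons of Drosophila melanogaster, HeT-A, TAHRE, TART-A, TART-B and TART-C, were followed across testis small RNA libraries of 9 genotypes. The members were the rows that carry exactly these names after an accession prefix. All 5 were found among the 117 elements listed for the y w library and the bam, bgcn, can and sa libraries, and all 5 passed the filter on low counts there, together with 109 others. The combined table of the aub and ago3 libraries lists 86 elements, and HeT-A, TART-A, TART-B and TART-C were analysed in it.

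Flies have no telomerase, and their chromosome ends are rebuilt by these elements, which transpose onto the ends. All belong to the jockey-type LINE-like retrotransposons, which lack long terminal repeats. HeT-A encodes a Gag protein that brings the RNA to the telomere but no reverse transcriptase. TAHRE resembles HeT-A in much of its sequence and also encodes a reverse transcriptase, and the TART subfamilies A, B and C encode Gag and reverse transcriptase. In fly ovaries the transcripts of these elements are silenced by PIWI-interacting RNAs (piRNAs), small RNAs that guide the Piwi, Aub and Ago3 proteins, and Aub and Ago3 amplify piRNAs by cutting sense and antisense transcripts in turn.

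Spermatogonia were represented by 1 library of bam and 1 of bgcn mutant whole testes, whose germline is made up of early, mitotically dividing cells. Primary spermatocytes were represented by 1 library each of can and sa mutant testes whose apical tips had been removed, mutants known for arrest before the meiotic divisions. Whole testes of y w flies, of aub (N11/HN2) mutants with their aub/CyO controls, and of ago3 (t2/t3) mutants with their ago3/TM6 controls, both controls being heterozygotes over balancer chromosomes, gave 1 library each. The labels give neither the alleles of bam, bgcn, can and sa nor the ages of the flies. Replicates of a stage are therefore different mutants, and stage, stock and dissection change together between the groups and cannot be told apart. Totals ran from 262757 (sa) to 580459 (bgcn) transposon-mapping reads in the first 5 libraries, and from 8434 (aub mutant) to 102700 (ago3 heterozygote) reads in the combined table, so values of the aub mutant carry the largest counting error. Ranges in brackets are 95% intervals (exact binomial), which take in no error beyond that of counting. In whole tissue, fewer cells of a type and less RNA per cell cannot be told apart. Reads were not divided by element length, so each element is compared with itself across libraries.

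Telomeric small RNAs differed widely between the bam and bgcn libraries, the pair that stands for the same stage. The 5 elements together held 0.417% of transposon-mapping reads in bam (0.398 to 0.436), 2.03% in bgcn (1.99 to 2.07), 1.33% in can (1.29 to 1.36), 0.876% in sa (0.840 to 0.912) and 0.761% in y w (0.733 to 0.790). By share the spermatogonia libraries lay at the extremes, with both spermatocyte libraries between them. TMM scaling (trimmed mean of M values) sets libraries to the typical element. The stage test used TMM factors from the filtered counts of bam, bgcn, can and sa alone. With TMM factors over all listed elements and y w included, the summed telomeric reads were 3428 rpm in bam, 16028 in bgcn, 17038 in can, 9312 in sa and 8562 in y w. On that scale bam was still the lowest, but can lay above bgcn.

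Of HeT-A, the Gag-encoding element, 163 reads were counted in bam, 1058 in bgcn, 336 in can, 97 in sa and 279 in y w, which corresponds to shares of 0.0372%, 0.182%, 0.0647%, 0.0369% and 0.0782%. Its share was highest in bgcn, and the intervals of bam and sa, the lowest libraries, overlapped. TAHRE, its relative with a reverse transcriptase, had 67, 398, 142, 37 and 69 reads in the same order and shares of 0.0153%, 0.0686%, 0.0273%, 0.0141% and 0.0193%. Here too bgcn was highest, and the intervals of bam, sa and y w overlapped.

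TART-A had 1449 reads in bam, 6182 in bgcn, 3012 in can, 1361 in sa and 1510 in y w, with shares of 0.330%, 1.07%, 0.580%, 0.518% and 0.423%. Its order ran from bam through y w, sa and can to bgcn, and no neighbouring intervals in that order overlapped. TART-B had 104, 1159, 1060, 316 and 301 reads and shares of 0.0237%, 0.1997%, 0.204%, 0.120% and 0.0843%. The intervals of bgcn and can overlapped, and bam was the lowest library. TART-C had only 45 reads in bam against 2980 in bgcn, 2335 in can, 490 in sa and 557 in y w, with shares of 0.0103%, 0.513%, 0.449%, 0.186% and 0.156%. The bam library stood far below the other 4 for this subfamily.

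**Figure D1:**
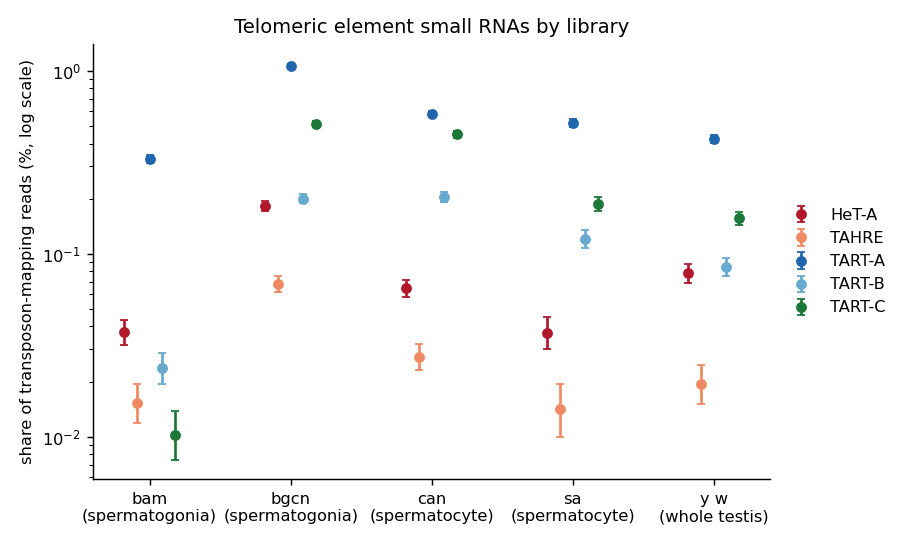
Share of transposon-mapping reads (percent, log scale) of each telomeric element in the 4 stage libraries and y w, 1 point per library with its 95% exact binomial interval. TART-C lies at 0.0103% in bam and between 0.156% and 0.513% elsewhere, whereas TART-A spans 0.330% to 1.07%.

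Set against each other, the share in bgcn exceeded that in bam 50.1-fold for TART-C (37.3 to 68.8), 8.42-fold for TART-B (6.89 to 10.4), 4.91-fold for HeT-A (4.16 to 5.82), 4.49-fold for TAHRE (3.46 to 5.91) and 3.22-fold for TART-A (3.05 to 3.42). Among the 114 elements these ratios ranked 1, 3, 7, 8 and 11 from the highest, and the median element had a ratio of 1.14. In all, 4 of the 5 members reached 4-fold, against 7.89% of all elements. Rank 2 was Dyak-TART, the TART element of Drosophila yakuba, with 35 reads in bam, 1343 in bgcn and a ratio of 29.0 (20.7 to 41.8). Reads that map to more than 1 TART sequence may be counted in several rows, and how they were handled is not stated. The ratios of the members changed little with the scaling, from 48.1 to 60.7 for TART-C and from 3.10 to 3.91 for TART-A with TMM scaling and with the authors' factors. Each genotype is 1 library, so these differences have no replicate check.

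Between can and sa the members differed far less. Shares in can were 2.41-fold those in sa for TART-C (2.19 to 2.66), 1.94-fold for TAHRE (1.34 to 2.87), 1.75-fold for HeT-A (1.39 to 2.22), 1.70-fold for TART-B (1.49 to 1.93) and 1.12-fold for TART-A (1.05 to 1.19). None of the 5 reached 4-fold, against 4.39% of all elements, and the median element had a ratio of 0.809. All 5 ratios lay above 1 under each of the 3 scalings.

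**Figure D2:**
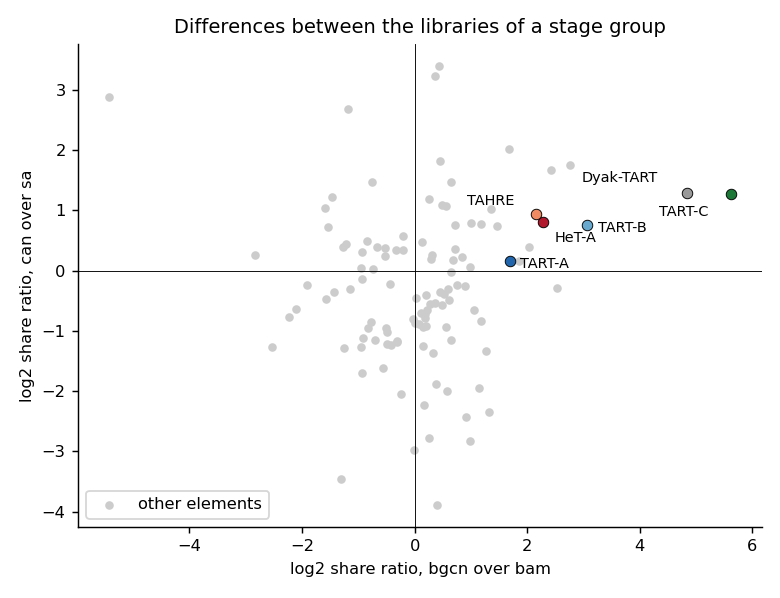
Log2 ratio of shares between bgcn and bam (horizontal) and between can and sa (vertical) for the 114 elements tested, with the telomeric elements and Dyak-TART in colour and other elements in grey. TART-C and Dyak-TART lie farthest to the right, at 50.1-fold and 29.0-fold, and the other telomeric elements lie right of 0 between 3.22-fold and 8.42-fold.

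The make-up of the telomeric reads differed between libraries. TART-A made up 79.3% of them in bam (77.3 to 81.1) but 52.5% in bgcn (51.6 to 53.4), 43.7% in can (42.6 to 44.9), 59.1% in sa (57.1 to 61.2) and 55.6% in y w (53.7 to 57.5). TART-C made up 2.46% in bam (1.80 to 3.28) against 25.3% in bgcn, 33.9% in can, 21.3% in sa and 20.5% in y w. The count of TART-C reads per TART-A read was 0.0311 in bam, 0.482 in bgcn, 0.775 in can, 0.360 in sa and 0.369 in y w. The sa and y w ratios had overlapping intervals, and can stood highest.

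Over the 5 libraries the ratio of HeT-A to TAHRE reads varied less than the ratios among the TART subfamilies, a contrast that rested mostly on bam. TART-C reads per TART-B read were 0.433 in bam and from 1.55 (sa) to 2.57 (bgcn) elsewhere. TART-B reads per TART-A read were 0.0718 in bam and from 0.187 (bgcn) to 0.352 (can) elsewhere. Reads that match both HeT-A and TAHRE may be counted in both rows. There were 2.43 HeT-A reads per TAHRE read in bam (1.82 to 3.28), 2.66 in bgcn (2.37 to 2.99), 2.37 in can (1.94 to 2.90) and 2.62 in sa (1.78 to 3.94), values with overlapping intervals, and 4.04 in y w (3.10 to 5.34). HeT-A and TAHRE together were a smaller part of the telomeric reads in the spermatocyte libraries, since the TART subfamilies summed to 93.1% in can and 94.2% in sa against 87.4% in bam, 87.6% in bgcn and 87.2% in y w. The share of HeT-A alone among telomeric reads was 8.92% in bam and 8.98% in bgcn against 4.88% in can and 4.22% in sa. Counted per TART-A read instead, HeT-A stood at 0.112 in bam, 0.171 in bgcn, 0.112 in can and 0.0713 in sa. By that ratio the intervals of bam (0.0951 to 0.132) and can (0.0994 to 0.125) overlapped, so the difference depended on the reads HeT-A was set against.

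**Figure D3:**
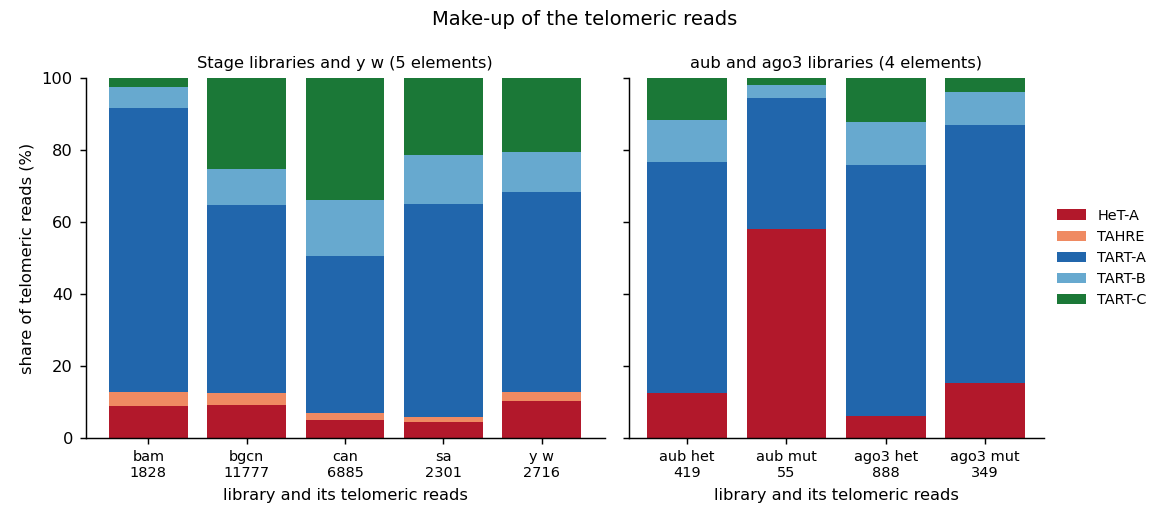
Make-up of the telomeric reads in each library (stacked bars from 0 to 100 percent, number of telomeric reads under each name), with all 5 elements for the stage and y w libraries and 4 for the aub and ago3 libraries. HeT-A takes 58.2% of the 55 telomeric reads of the aub mutant, against 12.4% in its heterozygote.

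Likeness of pattern was measured as the root mean square difference of log2 shares, each centred on its own mean, over the 5 stage and y w libraries. The element most like HeT-A among 113 others was TAHRE (0.28), followed by gypsy12 (0.40) and TART-A (0.49), where the median element was at 1.11. TAHRE was most like HeT-A, gypsy12 (0.33) and TART-A (0.39). TART-A was nearest to X-element (0.38), a jockey-type retrotransposon, then TAHRE and gypsy12 (0.43). For TART-B the nearest were TART-A (0.75), R1A1-element (0.84) and gypsy8 (0.85), and for TART-C they were Dyak-TART (0.36), TART-B (0.92) and Osvaldo (1.23). TART-C ranked 99 of 113 in likeness to HeT-A. The summed telomeric reads were nearest to gypsy12 (0.60), Rt1c (0.61) and transib3 (0.61) of 109 elements outside the group. These values describe 5 libraries and carry no test. Rows of similar sequence, such as HeT-A and TAHRE or TART-C and Dyak-TART, may count the same reads, and the part of such reads in their likeness was not tested.

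The stage comparison asked whether telomeric small RNAs differ between spermatogonia and primary spermatocytes. No telomeric element passed the test in either direction, where 10.5% of all tested elements did. The comparison used edgeR's quasi-likelihood test on raw counts with TMM scaling and p-values adjusted by Benjamini-Hochberg over the 114 elements, at a threshold of 0.05. By edgeR 0 of the 5 had an unadjusted p under 0.05 (20.2% of all elements did), and DESeq2 called 0 of the 5 (14.9% of all). The count of members was also 0 with library totals (5.26% of all) and with the authors' factors (8.77% of all) in edgeR. The shares of the stage groups overlapped for all 5 members, whereas 51.8% of all elements had groups that did not overlap.

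In rpm scaled by TMM with y w included, TART-B averaged 886 ± 977 in spermatogonia and 1951 ± 951 in spermatocyte libraries (SD, n = 2 per group). Its log2 fold change was 1.11 (SE 1.07, edgeR adjusted p = 0.654). TART-C averaged 2070 ± 2808 and 3881 ± 2684 (log2 fold change 0.88, SE 0.91, edgeR adjusted p = 0.654). For both, the SD between bam and bgcn exceeded their mean. TART-A was at 5566 ± 4028 and 6481 ± 1376 (log2 fold change 0.20, SE 0.74, edgeR adjusted p = 0.960). HeT-A was at 873 ± 802 and 612 ± 310 (-0.54, SE 1.12, edgeR adjusted p = 0.889), and TAHRE at 334 ± 294 and 251 ± 143 (-0.43, SE 1.13, edgeR adjusted p = 0.898). The median log2 fold change was 0.20 for the 5 members and -0.05 for all elements tested.

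Apart from TART-B, which was positive in each of these fits, the sign of the stage difference changed with the library left out. Without bgcn all 5 log2 fold changes were positive, up to 5.50 for TART-C (edgeR adjusted p = 0.0594) and 3.30 for TART-B (0.417). Without bam, 4 of the 5 were negative, with TART-B at 0.24 and TART-C at -0.13. Without sa all 5 were positive, with TART-C at 1.76 and TART-B at 1.84, and without can TART-B was the only positive one at 0.52. With the authors' factor for each library, TART-A was at -0.77 and TART-C at -0.18, against a median of -0.88 for all elements on that scale.

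**Figure D4:**
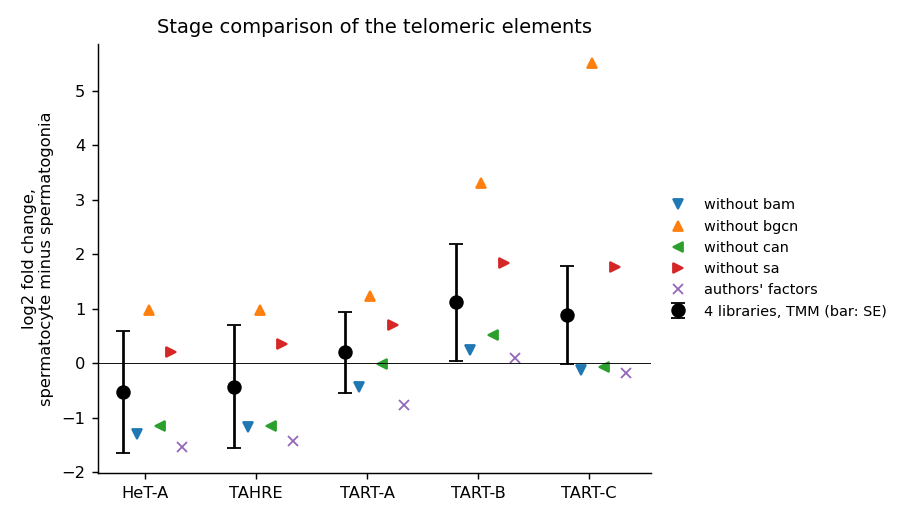
Log2 fold change of each telomeric element, spermatocyte minus spermatogonia, from all 4 stage libraries (black, bars are standard errors), with 1 library left out (triangles) and with the authors' factors (crosses). TART-C runs from -0.18 with the authors' factors to 5.50 without bgcn, and HeT-A, TAHRE, TART-A and TART-C each have values on both sides of 0.

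Of 22 other jockey-type elements listed, 19 were tested, 1 rose (8.77% of all elements did) and 0 fell (1.75% of all), and their median log2 fold change was -0.03. The one that rose was jockey, at shares of 0.0604% in bam, 0.0798% in bgcn, 0.0537% in can and 0.797% in sa (log2 fold change 3.002, SE 1.01, edgeR adjusted p = 0.0392). Its can share lay below both spermatogonia shares, and without sa the log2 fold change was 0.56 (edgeR adjusted p = 0.867).

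Telomere-associated repeats next to the elements are known sources of piRNAs, and 2 clusters in the tables lie at the ends of arms in the coordinates the tables use, whose build is not stated. The cluster on 2L from 2499 to 11131 starts close to the end of the arm and had 34 reads in bam, 73 in bgcn, 16 in can, 12 in sa and 17 in y w. As shares of the reads in all clusters these were 0.163% (0.113 to 0.227), 0.224% (0.175 to 0.281), 0.0741% (0.0424 to 0.120), 0.103% (0.0533 to 0.180) and 0.0925% (0.0539 to 0.148), with bgcn highest. The last cluster listed on 2R, from 21139959 to 21146679, had 10, 38, 9, 6 and 10 reads in the same order. At these depths neither stage difference passed, with log2 fold changes of -0.33 (SE 0.62, edgeR adjusted p = 0.722) and -0.11 (SE 0.83, 0.913), where 1.01% of the 99 clusters passed. With the authors' factors the 2L cluster passed at a log2 fold change of -1.82 (edgeR adjusted p = 0.0286), as did 51.5% of all clusters. The bgcn share was 1.38-fold the bam share on 2L (0.904 to 2.13) and 2.43-fold on 2R (1.19 to 5.48).

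Whole y w testes fell within the range of the 4 stage libraries for all 5 members by share, as did 80.7% of all elements, and also after TMM scaling. On the 86 elements of the combined table, the 4 members measured in all whole-testis controls held 0.746% of reads in y w (0.718 to 0.775), 0.499% in aub/CyO (0.453 to 0.549) and 0.865% in ago3/TM6 (0.809 to 0.923). HeT-A held 0.0786% (0.0696 to 0.0884), 0.0619% (0.0463 to 0.0812) and 0.0526% (0.0395 to 0.0686) in that order, and TART-C 0.157% (0.144 to 0.170), 0.0584% (0.0432 to 0.0772) and 0.105% (0.0863 to 0.127). The y w table and the combined table were made separately, and the read lengths counted in each are not given, so these shares were not tested against each other.

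The aub and ago3 comparisons asked how telomeric small RNAs differ between testes of each mutant and of its heterozygote. In the aub mutant, the HeT-A level was 0.752 of that in the heterozygote, whereas the levels of the TART subfamilies were 0.0905 or less. Each genotype was 1 library, so no test was made and no difference has a replicate check. Levels are the authors' normalised reads, and shares are reads over the total of the 86 elements, worked back to whole reads.

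HeT-A had 32 reads in the aub mutant and 52 in aub/CyO, or 35.6 and 47.3 normalised reads, a level ratio of 0.752 (0.469 to 1.19) whose interval includes 1. TART-A had 20 and 270 reads, or 22.2 and 245 normalised reads, a level 11.05-fold lower (ratio 0.0905, 0.0544 to 0.143). TART-B had 2 and 48 reads (ratio 0.0509, 0.00600 to 0.194), and TART-C had 1 and 49 (ratio 0.0249, 0.000619 to 0.146). The TART intervals all lay below that of HeT-A. The 72 elements with at least 100 reads in the pair had a median level ratio of 0.0664, so the TART values lay near the typical element and HeT-A above it. HeT-A itself had 84 reads in the pair and ranked 15 of all 86 elements by level ratio.

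Expressed within each library, which needs no scaling, there were 1.60 HeT-A reads per TART-A read in the aub mutant against 0.193 in its heterozygote, an odds ratio of 8.24 (4.21 to 16.5). HeT-A took 58.2% of the 55 telomeric reads of the mutant (44.1 to 71.3) and 12.4% of the 419 of the heterozygote (9.41 to 15.95). As a share of the reads of all 86 elements HeT-A was at 0.379% against 0.0619%, a ratio of 6.13 (3.82 to 9.70), TART-A at a ratio of 0.737 (0.443 to 1.16), and the 4 members together at 1.31 (0.968 to 1.73). In separate tables that count reads of all lengths, the share ratio of HeT-A was 0.978 (0.936 to 1.02). A share was called different at a 2-fold ratio in either direction with 100 or more reads in the pair, and no member was called, against 29.2% of elements at or above 2 and 48.6% at or below 0.5. HeT-A, TART-B and TART-C did not have the reads for a call. Retrotransposons typical of somatic gonadal cells, a list of 10 gypsy-type elements, held 36.9% of the reads in the aub mutant and 6.23% in its heterozygote, and their part in the HeT-A share was not tested.

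In the ago3 mutant the level of HeT-A was 0.644 of that in ago3/TM6 and the levels of the TART subfamilies were 0.266 or less. None of the 79 elements with at least 100 reads in the pair had a level above that of the heterozygote, so lower levels were not particular to the members. HeT-A had 53 and 54 reads, or 42.9 and 66.7 normalised reads, a level ratio of 0.644 (0.432 to 0.958), the third highest of these 79 elements. TART-A had 251 and 619 reads, or 203 and 764 normalised reads (ratio 0.266, 0.229 to 0.308). TART-B had 32 and 107 (ratio 0.196, 0.128 to 0.293) and TART-C 13 and 108 (ratio 0.0789, 0.0407 to 0.141), which put TART-C 12.7-fold below its heterozygote. The HeT-A interval lay above those of all TART subfamilies, and that of TART-C overlapped the interval of TART-B only. The median element was at 0.240, close to TART-A.

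Among telomeric reads of the ago3 pair, HeT-A took a larger part, 15.2% (11.6 to 19.4) in the mutant against 6.08% (4.601 to 7.86) in the heterozygote, although its level was lower. The odds ratio of HeT-A to TART-A was 2.42 (1.58 to 3.71) and that of TART-C to TART-A was 0.297 (0.150 to 0.542), which over all read lengths was 1.15 (1.08 to 1.22), in the opposite direction. By share of the 86 elements HeT-A was called higher at 3.05-fold (2.05 to 4.54) and TART-C lower at a ratio of 0.374 (0.193 to 0.668), with a background of 15.2% of elements at or above 2 and 15.2% at or below 0.5. Over all read lengths the share ratio of HeT-A was 1.48 (1.34 to 1.64), beside a median of 1.49 for all elements. That of TART-C was 1.60 (1.52 to 1.69), and neither passed the 2-fold rule. The combined table held 4.31% (mutant) and 9.05% (heterozygote) as many HeT-A reads as the all-length tables. For TART-C it held 0.273% and 5.05% as many. The all-length tables thus count far more reads and cannot decide whether the calls hold. TART-A (1.26, 1.08 to 1.46) and TART-B (0.930, 0.606 to 1.39) were not called. Somatic-type elements held 9.36% and 6.78% of reads in this pair.

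**Figure D5:**
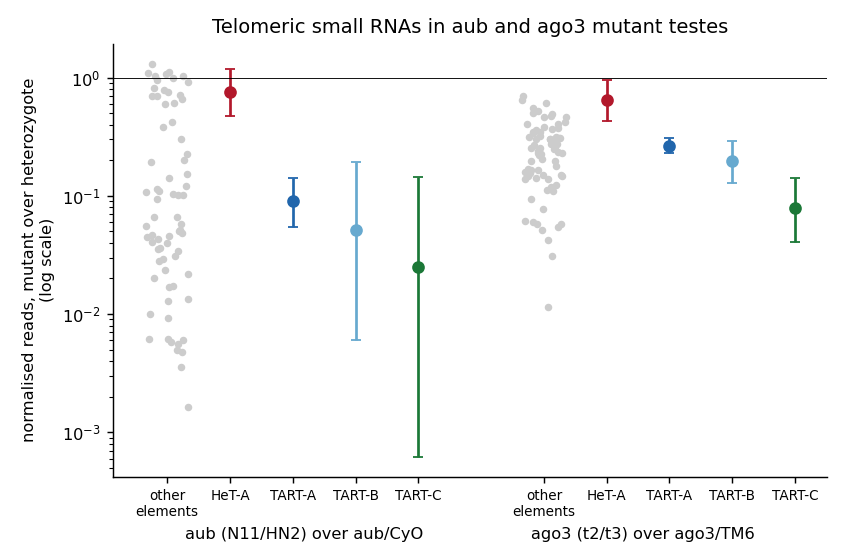
Normalised reads in the mutant over the heterozygote (log scale) for the measured telomeric elements, with 95% exact binomial intervals from read counts, beside the other elements with at least 100 reads in the pair (grey). HeT-A lies at 0.752 in aub and 0.644 in ago3, above TART-A at 0.0905 and 0.266.

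Set side by side, TART-A and TART-B kept more of their heterozygote level in the ago3 mutant than in the aub mutant. TART-A was at 0.266 against 0.0905 and TART-B at 0.196 against 0.0509. So did the median element, at 0.240 against 0.0664, so this was not particular to the members. The level intervals were apart for TART-A but not for TART-B, and the share intervals of TART-A overlapped (1.08 to 1.46 and 0.443 to 1.16). By level, TART-C (0.0789 and 0.0249) and HeT-A (0.644 and 0.752) had overlapping intervals. Of the 13 jockey-type elements in the combined table, 10 had at least 100 reads in the aub pair and 13 in the ago3 pair. In the aub pair 10 of 10 were at or below 0.5 of the heterozygote level, against 75% of all elements with that many reads. In the ago3 pair 13 of 13 were, against 91.1%. The median level ratios of the jockey-type elements counted were 0.0469 and 0.205.

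Tables over all read lengths hold all 5 members but count far more reads, 1354982 in the aub mutant and 1742807 in its heterozygote. In them HeT-A had 3559 and 4682 reads in the aub pair and TART-A 22950 and 30063, so the combined table held 0.899% and 1.11% as many HeT-A reads and 0.0871% and 0.898% as many TART-A reads. Over all lengths the odds ratio of HeT-A to TART-A was 0.996 in the aub pair (0.9499 to 1.04) and 1.06 in the ago3 pair (0.955 to 1.18), without the difference seen in the combined table. TAHRE, measured for these genotypes over all lengths alone, had 10398 and 12973 reads in the aub pair, a share ratio of 1.03 (1.00 to 1.06), and 2902 and 1106 reads in the ago3 pair, a share ratio of 1.89 (1.76 to 2.02). The median element had share ratios of 0.986 and 1.49 in these tables, 0 and 19.4% of elements reached a ratio of 2, and 2.25% and 7.43% were at or below 0.5, against 0 of the 5 members in either direction. The tables give no strand for single elements, so sense and antisense telomeric reads were not separated.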

How the data were processed

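Small RNA libraries from hand-dissected testes were prepared with TruSeq small RNA chemistry, per the labels' protocols. Bowtie (version 1) and DESeq2 are named, with no role, per the submitters' processing notes. The authors deposited raw read counts and a normalised signal per transposon and per piRNA cluster, the signal being the count times 1 factor per library (0.9360 for bam, 0.8583 for bgcn, 0.7104 for can, 1.294 for sa and 1.361 for y w). The sources used here do not give the genome build, the read lengths or the treatment of reads with several matches. The combined aub and ago3 table holds normalised signal, per the file headers. Its values above 0 were whole multiples of 1 step per library (tolerance 0.001 reads), so reads were worked back from them.

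Stage counts were tested with edgeR 4.0.16 in R 4.3.3 after a filter of at least 10 reads in at least 2 of the 4 libraries. DESeq2 1.42.0, other scalings, no filter and leaving out each library were alternatives. An SE was computed as the absolute log2 fold change divided by the square root of the F statistic. The p-values measure only the spread between these libraries. Named elements were the 5 members, the 3 elements most like each (0.5 reads added before logs) and jockey-type elements past the test. Clusters were those starting within 100000 bases of position 1 of X, 2L or 3L and the last on 2R. Their counts were raw reads, and the authors' factors served only as an alternative scaling. The members and lists were chosen with earlier results of these data known. The planned comparison of strands was not made.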

Additional observations from a re-analysis of the deposited data

Results flagged for a closer look

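TART-A stood at opposite sides of its heterozygote by share in the aub and ago3 mutants, with share ratios of 0.737 (0.443 to 1.16) and 1.26 (1.08 to 1.46). The difference was not tested, the aub interval includes 1, and by level TART-A was lower in both mutants (0.0905 and 0.266).

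In the tables over all read lengths, which the stage and mutant comparisons did not rest on, TAHRE and the telomeric elements of other fly species took a larger share in the ago3 mutant than in its heterozygote. TAHRE was at 0.760% against 0.403% of reads. The Drosophila yakuba rows were at 0.565% against 0.311% for HeT-A and 0.687% against 0.379% for TART. The Drosophila virilis rows were at 0.903% against 0.355% for TART and 0.198% against 0.0954% for Het-A. HeT-A, TART-A, TART-B and TART-C also took a larger share there, at share ratios of 1.48, 1.39, 1.92 and 1.60. The median element had a share ratio of 1.49 in that pair.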

How the results depend on the processing

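The count of telomeric elements called between stages stayed at 0 with library totals, the authors' factors and DESeq2. Of all elements, 5.26%, 8.77% and 14.9% were called there. It was also 0 with DESeq2 size factors and with no filter, where the share of all elements called was not worked out. Fits without 1 stage library leave 1 library in a group, so only their fold changes are given. Of the 45 log2 fold changes of members under all these settings, 34 kept their sign and 11 did not. TART-A turned to -0.35 under library totals and to -0.77 under the authors' factors, and TART-C to -0.18 with the authors' factors. With 1 library left out, HeT-A ran from -1.30 to 0.98, TAHRE from -1.17 to 0.98, TART-A from -0.44 to 1.23 and TART-C from -0.13 to 5.50. The log2 ratio of summed telomeric shares, spermatocyte over spermatogonia, was -0.15 and ran from -0.88 without bam to 1.40 without bgcn; leaving out the 5 most abundant elements gave 0.35. The call of jockey was also lost with library totals, the authors' factors, DESeq2 size factors, and without bam, bgcn or sa, at log2 fold changes from 0.56 to 3.18. Telomere-proximal clusters, recomputed under alternatives chosen after seeing the data, had 0 calls except 1 with the authors' factors, and ran from -1.00 to 0.39 (2L) and from -0.39 to 0.14 (2R) with 1 library left out; on 2R too few reads were left for a fit without bam or bgcn. The y w share was 0.655 of the stage mean and 0.748 after TMM scaling. The telomeric share ratio in aub, 1.31, was 0.823 without the 5 most abundant elements of the heterozygote. That in ago3, 1.22, was 1.57 over all read lengths. The authors' values give level ratios, a different measure, of 0.160 in aub and 0.258 in ago3 for the same sums. Share and level ratios of a pair differ by the ratio of total levels, 0.123 in aub and 0.211 in ago3. For HeT-A the share ratios were 6.13 in aub and 3.05 in ago3, beside level ratios of 0.752 and 0.644. Over all read lengths the HeT-A share ratio in aub was 0.978, and the TART-C share ratio in ago3 went from 0.374 to 1.60. The cause was not tested. No paired analysis was possible because each genotype is 1 library and the replicates of a stage are different mutants. Depth limits TART-B and TART-C in the aub mutant, at 2 and 1 reads.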
